A study of Mus musculus with 8 samples.

Results

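The 36 genes described here encode the interstitial matrix of the kidney, the machinery that builds and remodels it, and contractile or cytoskeletal proteins. They were chosen by name, as fibroblast and interstitial matrix genes, with earlier results of these data known. All 36 were found among the 49315 gene IDs of the count table. Poly(A)-selected RNA from frozen mouse kidney was sequenced in 4 control libraries and 4 libraries with a conditional knockout of Kdm1a, which encodes the histone demethylase LSD1. The labels call the groups Control and Conditional Knockout and call the controls wild type in the extraction protocol. The labels give no strain, sex, age, Cre driver, deleted exons or recombined cell type, and nothing says that each library came from a separate animal, so p values measure the spread between these 8 samples. Kdm1a itself fell from 113 ± 4.77 to 93.6 ± 1.88 CPM (read counts scaled to library size; mean ± SD, n = 4 per group), a log2 difference of −0.27 (SE 0.05, adjusted p 0.0194) without overlap between the groups. Its call was kept in 3 of the 8 fits that left out 1 library.

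The interstitial matrix is made mainly by fibroblasts, with pericytes, smooth muscle and endothelium adding to it. Fibrillar collagens form cables that bear load, collagen VI forms a beaded web near cells, and fibrillin microfibrils carry elastin and store latent TGF-beta. Small proteoglycans coat the collagen fibrils, lysyl oxidases cross-link them, and metalloproteinases and their inhibitors set the pace of turnover. TGF-beta is the signal best known for driving fibroblasts to deposit matrix in the injured kidney.

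The libraries differed in other cell types as well as in genotype. Summed over 10 proximal tubule markers, the level was 676 to 2606 CPM in controls and 50.6 to 365 CPM in knockouts, with all 10 genes called lower. Adrenal markers (12 genes) stood at 2770 CPM in knockout replicate 1, 383 CPM in knockout replicate 4, 154 CPM in control replicate 4 and at most 24.7 CPM elsewhere. Endothelial markers (10 genes) summed to 629 to 954 CPM in controls and 443 to 745 CPM in knockouts, and smooth muscle markers (8 genes) to 192 to 347 CPM and 224 to 350.5 CPM. Podocyte markers (6 genes) summed to 389 to 584.5 CPM and 282 to 351 CPM without overlap, with Nphs1 and Podxl called lower. Leukocyte markers (8 genes) summed to 76.6 to 94.4 CPM and 94.4 to 115 CPM, with Ptprc and C1qa called higher. The adipose list (6 genes) summed to 200.3 to 276 CPM and 143 to 222.5 CPM, most of it Fabp4, which endothelium also expresses, while Plin1 reached at most 6.42 CPM and Adipoq 1.16 CPM. Mesothelium and capsule markers (5 genes) summed to 148 to 217 CPM in controls and 132 to 219 CPM in knockouts, with no gene called. Of these, Lrrn4 and Upk3b were highest among controls in replicate 2, and Msln, Upk1b and Krt19 were not. Schwann cell markers (5 genes) summed to 29.95 to 38.25 CPM and 31.8 to 47.3 CPM. Red blood cell markers (4 genes) summed to 337 to 707 CPM and 395 to 1220 CPM. In bulk tissue, more cells of a type and more RNA per cell cannot be told apart, and the part of these differences in the matrix results was not tested, apart from the fits named here. Y-linked transcripts were low in control replicate 2 and in knockout replicates 1 and 4, so the sexes are not balanced between the groups. Control replicate 2 also had the lowest proximal tubule sum of the controls, 676 CPM. Over all genes tested, chi-square per degree of freedom is larger for less alike libraries. For control replicate 2 it was 17.7 to 22.1 against each knockout and 34.7 to 61.1 against each other control. The cause was not tested.

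Of the 36 genes, 11 rose and 0 fell in the knockout in edgeR's quasi-likelihood test at an adjusted p under 0.05. Over all 18485 genes tested, 6.61% were called higher and 8.27% lower, and among the 11186 with an average of 10 CPM or more, 7.21% were called higher. Because the 36 genes were chosen with earlier results of these data known, comparing them with all genes describes the set and does not test it. The genes called were Ogn, Lox, Fbn1, Mmp2, Vim, Tgfb2, Col12a1, Mmp14, Timp2, Col6a3 and Sparc. Among the other 25 genes, log2 fold changes were above 0 for 19 and below 0 for 6. The median over the 36 genes was 0.41, against 0.0044 over all genes tested and −0.03 over those 11186. At an unadjusted p under 0.05 there were 21 higher and 1 lower, against 16.5% and 18.6% of all genes. DESeq2 called 17 higher and 1 lower (10.8% and 13.6% of all genes), and limma-voom called 23 higher and 3 lower (22% and 22.9% of all genes). In 8 of the 36 genes all 4 knockouts lay above all 4 controls, a pattern found in 9.29% of all genes tested and 9.18% of those at 10 CPM or more. In 0 of the 36 all knockouts lay below all controls, against 9.58% of all genes tested. Fitted folds among the 11 ran from 1.23 for Timp2 to 2.42 for Ogn.

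**Figure D1:**
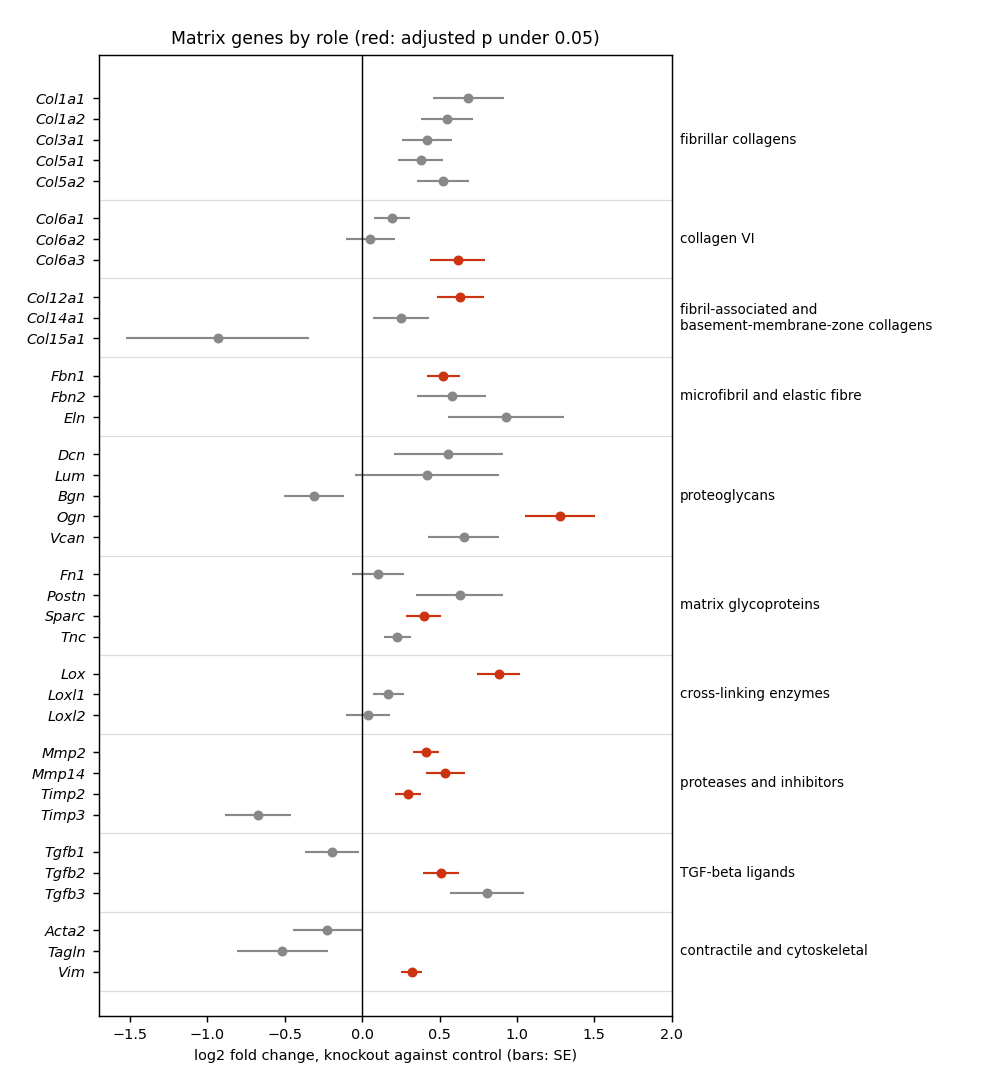
Log2 fold change (knockout against control) of each of the 36 genes on the x axis, arranged by role, with the standard error as a bar. Red points mark the 11 genes with an adjusted p under 0.05, all to the right of 0; Col15a1, Timp3, Tagln, Bgn, Acta2 and Tgfb1 lie to the left.

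These counts depended on single libraries. Leaving out control replicate 1, 2, 3 or 4 gave 1, 24, 1 and 2 genes called, and leaving out knockout replicate 1, 2, 3 or 4 gave 7, 2, 10 and 1. Over all genes the same fits called 536, 7084, 374, 695, 567, 596, 3192 and 153. Lox was called in all 8 fits, Ogn in 5, and each of the other 9 genes in 1 to 3. Without both control replicate 2 and knockout replicate 3, 21 of the 36 genes were called higher and 5 lower, against 20.5% and 22.2% of all genes. Without knockout replicates 1 and 4, which held the most adrenal transcripts, 2 knockout libraries remained and edgeR called 0 of the 36 genes and 1 gene in all, with 20 of the 36 higher and 0 lower at an unadjusted p under 0.05, against 8.61% and 9.67% of all genes. With the adrenal level as a covariate 12 of the 36 genes were called higher and 0 lower, against 3.16% and 3.31% of all genes. With the Y-linked level 8 were called higher and 0 lower, against 5.64% and 5.63%. Scaled by total counts alone, 13 of the 36 were higher and 0 lower, while all genes split into 1571 higher and 1172 lower, against 1222 and 1529 with the main scaling. In 32 of the 36 genes the log2 fold change kept its sign in each of the 19 other fits, while Col6a2, Fn1, Loxl2 and Acta2 did not.

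The fibroblast and pericyte markers did not move as a block. Of 12 such genes, 4 rose (Pdgfra, Foxd1, Gli1 and Tnfaip6), 2 fell (Meox1 and Meox2) and 6 were not called. Of all genes tested, 6.61% rose and 8.27% fell. Pdgfra, a receptor of interstitial fibroblasts, went from 184 ± 27.4 to 344 ± 17.3 CPM, a log2 difference of 0.90 (SE 0.10, adjusted p 0.00575). Pdgfrb, found on fibroblasts and pericytes, stood at 83.8 to 117 CPM in controls and 86.8 to 111 CPM in knockouts (log2 fold change −0.06, SE 0.11, adjusted p 0.746). The list summed to 762 to 937 CPM in controls and 921 to 1035 CPM in knockouts.

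The 36 genes held 0.806% to 1.04% of the scaled counts in controls and 0.920% to 1.29% in knockouts. Within the controls, replicate 2 was the highest library for 28 of the 36 genes. Within the knockouts, replicate 1 was the lowest for 29 and replicate 2 the highest for 19. Knockout replicates 2, 3 and 4 exceeded every control for 27, 23 and 20 of the 36 genes, and knockout replicate 1 for 8. The median gene stood above the control mean by 0.57, 0.48 and 0.46 on the log2 scale in knockout replicates 2, 3 and 4 and by 0.11 in knockout replicate 1. Knockout replicate 1 is also the library with the most adrenal RNA, and knockout replicate 2 the one with the lowest proximal tubule sum, 50.6 CPM. Whether either bears on the matrix level was not tested.

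**Figure D2:**
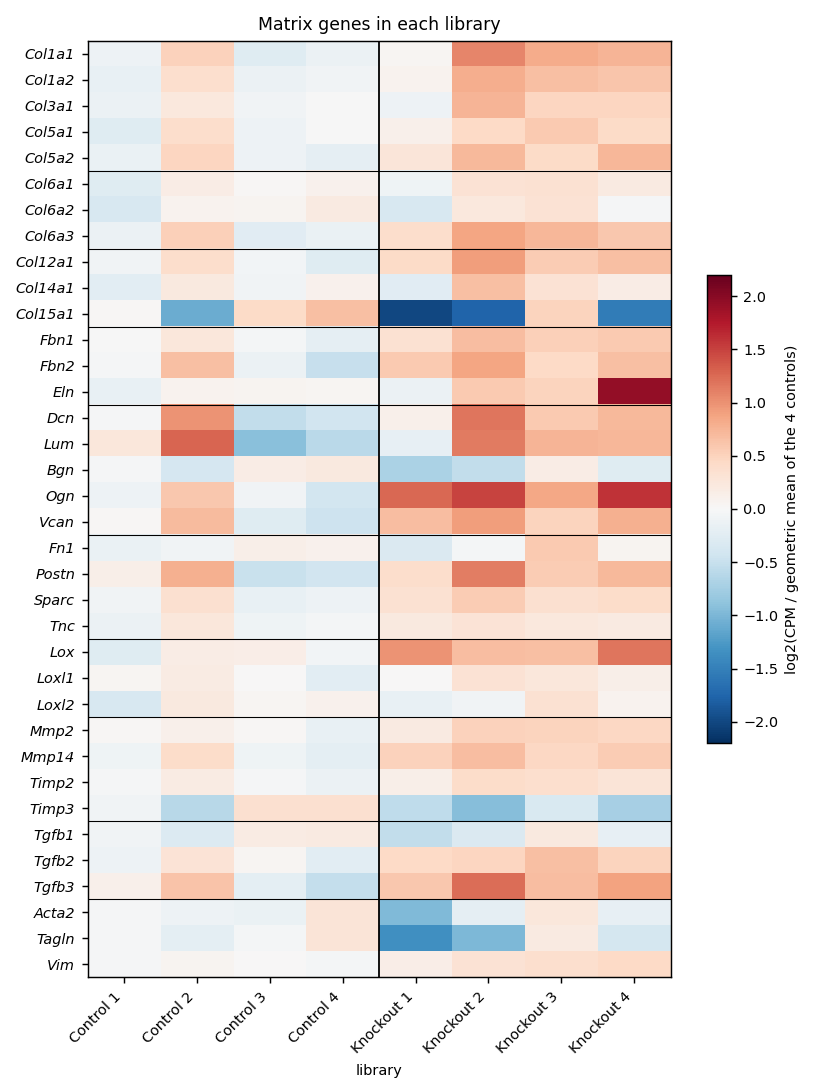
Each gene (rows, arranged by role) in each library (columns); colour gives log2 of CPM over the geometric mean of the 4 controls. Control replicate 2 is redder than the other controls, knockout replicate 1 paler than the other knockouts, and Col15a1 is deep blue in knockout replicates 1, 2 and 4 but not 3.

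**Figure D3:**
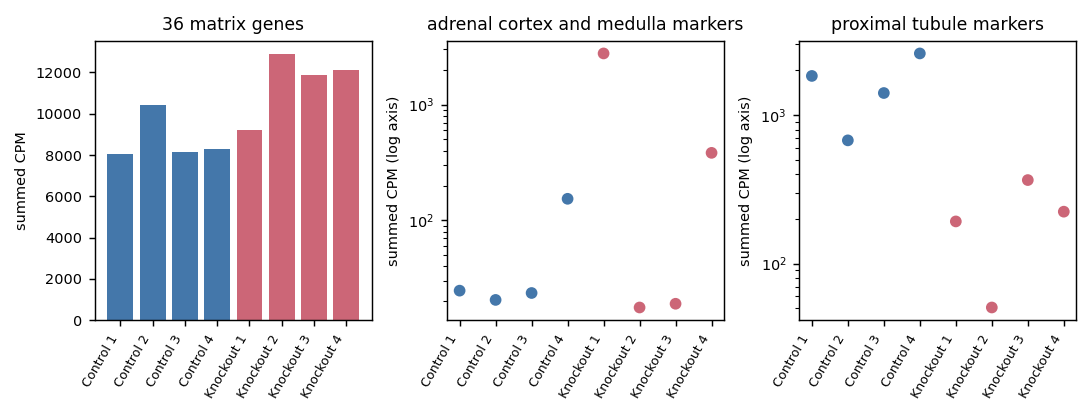
Summed CPM per library (x axis) of the 36 matrix genes on a linear axis from 0, and of the adrenal and proximal tubule markers on log axes; blue is control, red is knockout. Knockout replicate 1 has the lowest matrix sum of the knockouts (9200 CPM) and the highest adrenal sum (2770 CPM). Knockout replicate 2 has the highest matrix sum (12890 CPM) and the lowest proximal tubule sum (50.6 CPM).

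By length, the 36 genes were led by Sparc and Acta2 in the control kidneys. Sparc, a collagen-binding glycoprotein, had 274 CPM per kilobase of exon, Acta2 (smooth muscle actin) 187, Col3a1 126, Vim 125 and Dcn 76.7. Col1a1 and Col1a2, whose products join in one trimer, stood at 68.1 and 66.8 CPM per kilobase. Before the division by length they had 447 and 830 CPM, over 6563 and 12426 annotated exon bases. The ranking by length depends on these annotated lengths, and whether they match the transcripts present was not tested. The lowest were Tgfb2 and Tgfb1, at 4.30 and 4.11. In the knockouts Col3a1 had 168 and Acta2 160 CPM per kilobase.

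The fibrillar collagens shared one direction, and 0 of the 5 passed the test over all genes in edgeR. All 5 were higher at an unadjusted p under 0.05, as were 16.5% of all genes. DESeq2 called 3 higher and limma-voom 5, where they called 10.8% and 22% of all genes higher. Col1a2 (ENSMUSG00000029661, chromosome 6, 4504814 to 4541544, GRCm38), which encodes the alpha2 chain of collagen I, had 729, 1058, 753 and 781 CPM in control replicates 1 to 4. In knockout replicates 1 to 4 it had 862, 1433, 1297 and 1258 CPM. Knockout replicates 2, 3 and 4 lay above every control, and knockout replicate 1 lay below control replicate 2. The log2 fold change was 0.55 (SE 0.17, adjusted p 0.0581). It was called in 2 of the 8 fits that left out 1 library, and its adjusted p reached 0.151 over the 8. These were the fits without control replicate 2 (0.68, adjusted p 0.00913) and without knockout replicate 1 (0.68, adjusted p 0.0433). The same 2 fits called 18.4% and 1.89% of all genes higher.

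The partner chain Col1a1 had the same layout, with 365 to 622 CPM in controls and 452 to 918 CPM in knockouts (log2 fold change 0.69, SE 0.23, adjusted p 0.0717). Col3a1, the collagen of pliable interstitial fibrils, had 1122 to 1439 CPM and 1136 to 2058 CPM (0.42, adjusted p 0.106). The collagen V chains, which start fibrils and limit their width, had log2 fold changes of 0.38 for Col5a1 (adjusted p 0.102) and 0.52 for Col5a2 (adjusted p 0.0632). In all 5 genes control replicate 2 was the highest control and knockout replicate 1 the lowest knockout. With the adrenal covariate Col1a1, Col1a2 and Col3a1 were called, at 0.89, 0.69 and 0.56, where 3.16% of all genes were called higher. The highest adrenal levels were in knockout replicates 1 and 4, so this term is partly tied to genotype.

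Of the 3 collagen VI chains, 1 was called higher, against 6.61% of all genes tested. Col6a3 (ENSMUSG00000048126, chromosome 1, 90765923 to 90843971), which encodes the long alpha3 chain, had 70.2, 110, 64.1 and 69.0 CPM in control replicates 1 to 4 and 99.4, 139, 126 and 116 CPM in knockout replicates 1 to 4. Only knockout replicate 1 lay within the control range, and control replicate 2 was the only control above 70.2 CPM. The gene rose, with a log2 difference of 0.62 (SE 0.18, adjusted p 0.0476). Its partners Col6a1 and Col6a2, which assemble with it, were at 0.19 (SE 0.12, adjusted p 0.268) and 0.05 (SE 0.16, adjusted p 0.8288). The difference between the chains was not tested.

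Among the collagens that sit on fibrils or at basement membranes, Col12a1 (chromosome 9, 79598991 to 79718831), which decorates collagen I fibrils, had 154.5, 211, 156 and 135 CPM in control replicates 1 to 4. Its knockout values were 216, 308, 239 and 257 CPM, and the groups did not overlap (log2 fold change 0.63, SE 0.15, adjusted p 0.0287). Col14a1, of the same family, had 61.2 to 83.8 and 60.4 to 114 CPM (0.25, adjusted p 0.338). Col15a1, a collagen of basement membrane zones around vessels and muscle, is described after its values were seen. It had 114, 52.2, 150 and 176 CPM in control replicates 1 to 4 and 27.8, 33.0, 158 and 38.4 CPM in knockout replicates 1 to 4. Knockout replicates 1, 2 and 4 lay below every control, whereas knockout replicate 3 lay at the control level. The log2 fold change was −0.93 (SE 0.59, adjusted p 0.280), and −1.87 (SE 0.37, adjusted p 0.0200) without knockout replicate 3.

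The microfibril and elastic fibre genes had the highest median of the 10 role groups, 0.58 over 3 genes. Of the 3, 1 was called higher, against 6.61% of all genes tested. Fbn1 (ENSMUSG00000027204, chromosome 2, 125300594 to 125507993), the gene for fibrillin of mature microfibrils, had 134, 160, 132 and 119 CPM in control replicates 1 to 4. In knockout replicates 1 to 4 it had 170.5, 216, 195.5 and 202 CPM, all above the highest control. It rose, with a log2 difference of 0.53 (SE 0.10, adjusted p 0.0192). A predicted gene on the opposite strand, Gm9913, shares 20.1% of the exon length of Fbn1, but its own level was 0.440 CPM in controls and 0.365 CPM in knockouts. Fbn2, the fibrillin of developing tissue, had 145 to 328 and 279 to 379 CPM (0.58, SE 0.22, adjusted p 0.101).

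Eln, for elastin, had the widest spread of these 3 genes and is described after its values were seen. It stood at 154, 181, 179 and 177 CPM in control replicates 1 to 4 and at 158, 258, 241 and 658 CPM in knockout replicates 1 to 4. Knockout replicate 4 had more than any other library, and knockout replicate 1 lay among the controls. The log2 fold change of 0.93 (SE 0.38, adjusted p 0.116) became 0.36 (SE 0.16, adjusted p 0.198) without knockout replicate 4.

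Proteoglycans ranged from the largest rise of the whole set to a value below 0. Ogn (osteoglycin, ENSMUSG00000021390, chromosome 13, 49608071 to 49624500), a small leucine-rich proteoglycan, had 64.1, 104, 65.7 and 52.4 CPM in control replicates 1 to 4. It had 167, 194, 125 and 208 CPM in knockout replicates 1 to 4, so the groups did not overlap. The log2 fold change was 1.28 (SE 0.22, adjusted p 0.0153). The call was lost without control replicate 1, control replicate 3 or knockout replicate 4, with an adjusted p of up to 0.0570 and a log2 fold change of at least 1.149 in each of those 8 fits.

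The other proteoglycans were not called. Vcan (versican), the large proteoglycan of loose matrix, had 231 to 514 and 449 to 599 CPM, a log2 difference of 0.66 (SE 0.23, adjusted p 0.0785). Dcn (decorin) and Lum (lumican), which bind collagen fibrils, had 0.56 (SE 0.35, adjusted p 0.277) and 0.42 (SE 0.46, adjusted p 0.541). Both were highest among controls in replicate 2, where Dcn reached 289 CPM against 99.4 to 143 CPM in the other controls. Without that library Dcn and Lum were called, at 1.01 and 1.02 (adjusted p 0.0113 and 0.0477). Bgn (biglycan) was at −0.31 (SE 0.19, adjusted p 0.272), with 165 to 248 CPM in controls and 131 to 239 CPM in knockouts.

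Of the matrix glycoproteins, Sparc (chromosome 11, 55394500 to 55423183) was the 1 of 4 called, where 6.61% of all genes tested were called higher. It had 975, 1306, 919.5 and 946 CPM in control replicates 1 to 4 and 1292, 1508, 1303 and 1358 CPM in knockout replicates 1 to 4. Control replicate 2 overlapped the knockouts, and the other controls lay well below them (log2 fold change 0.40, SE 0.11, adjusted p 0.0482). Postn (periostin), a protein of collagen-rich and injured matrix, had 142 to 341 and 261 to 432 CPM (0.63, SE 0.28, adjusted p 0.144). Tnc (tenascin C) stood at 119 ± 14.8 and 139 ± 4.24 CPM (0.23, SE 0.09, adjusted p 0.0972). Fn1, for fibronectin, was at 0.10 (SE 0.17, adjusted p 0.692), and at −0.076 without knockout replicate 3, its highest library at 548 CPM.

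Among the lysyl oxidases, which start the cross-links of collagen and elastin, Lox was the 1 of 3 called. Of all genes tested, 6.61% were called higher. Lox (ENSMUSG00000024529, chromosome 18, 52516069 to 52529867) had 96.8, 130, 128 and 111 CPM in control replicates 1 to 4. It had 228, 185, 184 and 263 CPM in knockout replicates 1 to 4, and the lowest knockout was well above the highest control. The log2 fold change was 0.88 (SE 0.14, adjusted p 0.0125). It ran from 0.79 to 0.97 when each library was left out in turn, with an adjusted p of at most 0.0476. It was 0.66 (adjusted p 0.133) without knockout replicates 1 and 4. Loxl1, which acts on elastic fibres, was at 0.17 (SE 0.10, adjusted p 0.248) and Loxl2 at 0.04 (SE 0.14, adjusted p 0.863). The difference between these genes was not tested.

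**Figure D4:**
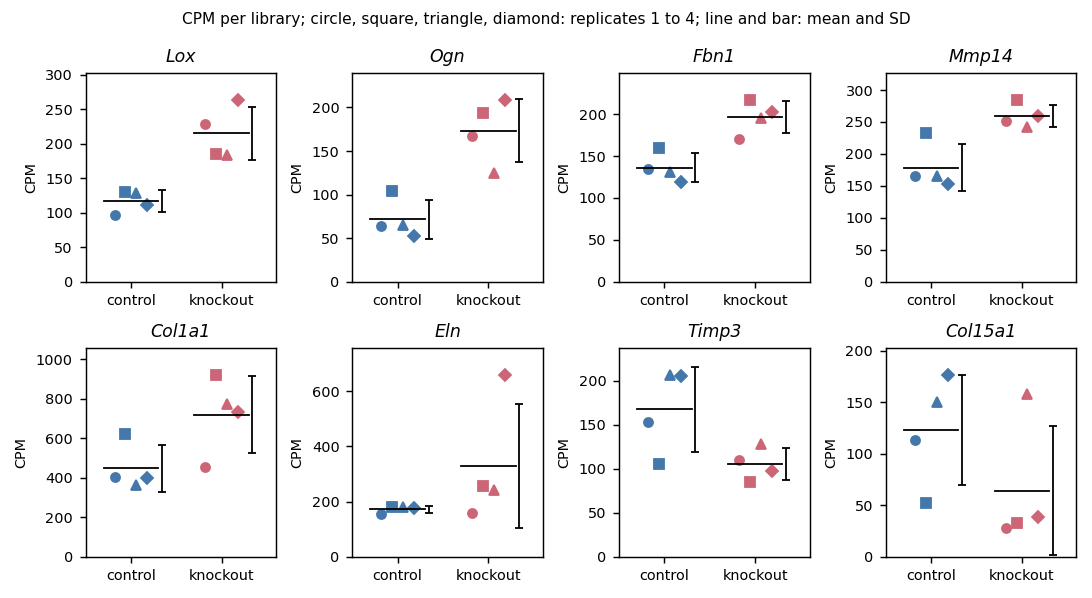
CPM per library (y axis, from 0) in the control and knockout groups for 8 genes; symbols mark replicates 1 to 4, the line the mean and the bar the SD (n = 4). Lox, Ogn, Fbn1 and Mmp14 do not overlap between groups; Col1a1, Eln, Timp3 and Col15a1 do, with 658 CPM of Eln in knockout replicate 4 and 158 CPM of Col15a1 in knockout replicate 3.

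The proteases and inhibitors had 3 of 4 genes called, all higher, where 6.61% of all genes tested were called higher. Mmp2 (gelatinase A, chromosome 8, 92827291 to 92853420) had 170, 181, 169 and 149 CPM in control replicates 1 to 4 and 192, 236, 233 and 228 CPM in knockout replicates 1 to 4. Mmp14 (chromosome 14, 54431612 to 54441265) encodes the membrane protease that activates the Mmp2 protein. It had 165.5, 232, 165 and 152.5 CPM in control replicates 1 to 4 and 252, 284, 242 and 260 CPM in knockout replicates 1 to 4. In neither gene did the groups overlap, and log2 fold changes were 0.41 (SE 0.09, adjusted p 0.0217) and 0.54 (SE 0.13, adjusted p 0.0288).

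Timp2, an inhibitor that also bridges those enzymes, had 199, 230, 201 and 186 CPM in control replicates 1 to 4. It had 222, 269, 263 and 248 CPM in knockout replicates 1 to 4 (log2 fold change 0.30, SE 0.09, adjusted p 0.0475). Knockout replicate 1 lay below control replicate 2. Timp3, the inhibitor held in the matrix, is described after its values were seen, with 153, 105, 206 and 205 CPM in control replicates 1 to 4. The knockouts had 110, 84.8, 128 and 97.2 CPM, and the groups overlapped through control replicate 2 (−0.67, SE 0.21, adjusted p 0.0612). Without that control the value was −0.84 (adjusted p 0.00403). Syn3, on the opposite strand, shares 21.3% of the exon length of Timp3 and stood at 3.64 and 2.67 CPM.

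The TGF-beta ligands did not share a direction. Tgfb2 (chromosome 1, 186622792 to 186705989) had 22.9, 30.3, 25.4 and 21.04 CPM in control replicates 1 to 4 and 33.5, 34.3, 39.1 and 34.8 CPM in knockout replicates 1 to 4. The groups did not overlap, and the gene rose, with a log2 difference of 0.51 (SE 0.12, adjusted p 0.0264). Tgfb3 had 34.5 to 76.1 and 75.0 to 116 CPM (0.81, SE 0.24, adjusted p 0.0508). Tgfb1, the ligand most studied in fibrosis, was at −0.19 (SE 0.18, adjusted p 0.453), with 16.55 to 23.6 CPM in controls and 14.1 to 23.8 CPM in knockouts.

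Of the 3 cytoskeletal and contractile genes, Vim was the one called, where 6.61% of all genes tested were called higher. Vim (vimentin, chromosome 2, 13573927 to 13582826), the intermediate filament of mesenchymal cells, had 585.5, 622, 594 and 573 CPM in control replicates 1 to 4. It had 657, 737, 765 and 804 CPM in knockout replicates 1 to 4, without overlap (log2 fold change 0.32, SE 0.07, adjusted p 0.0234). Acta2 and Tagln, contractile genes of smooth muscle and myofibroblasts, were not called. Of the 8 smooth muscle markers, 6 had log2 fold changes above 0 and 2 below, with 0 called by edgeR. Acta2 had 301 to 403 CPM in controls and 168, 288, 395 and 291 CPM in knockout replicates 1 to 4 (−0.22, SE 0.22, adjusted p 0.489). Tagln (transgelin) had 53.7 to 76.0 and 24.5 to 71.9 CPM (−0.51, SE 0.29, adjusted p 0.237). Knockout replicate 3 was the highest knockout for both and knockout replicate 1 the lowest. Without knockout replicate 3, Tagln was at −0.84 (adjusted p 0.0374). Gm48529, antisense to Tagln, shares 62.4% of its exon length and stood at 4.49 and 4.08 CPM. Pcsk7, also on the opposite strand, shares 5.43% and went from 32.7 to 24.2 CPM (log2 fold change −0.43, adjusted p 0.111). The handling of strand in counting is not given in the sources used here.

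Ordered by median log2 fold change, the role groups ran from microfibril genes (0.58) through proteoglycans (0.56), fibrillar collagens (0.52), TGF-beta ligands (0.51), proteases and inhibitors (0.35) and glycoproteins (0.31). Fibril-associated collagens (0.25), collagen VI (0.19), lysyl oxidases (0.17) and contractile genes (−0.22) followed. With 3 to 5 genes in a group, and a spread inside most groups as wide as that between them, this order is a description only.

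Promoters are printed for 3 genes that rose, Ogn, Mmp14 and Tgfb2, and for Acta2, which was not called, to show the start regions of genes that moved together and of one that did not pass the test. The RefSeq table (GRCm38.p6) held a promoter for 21 of the 36 genes, 8 of them called. Each line gives the 250 bases before the start, 5′ to 3′ on the gene's strand, and capitals mark the motifs listed after them. The intervals are chr13:49607765-49608014 (plus strand), chr14:54431348-54431597 (plus), chr1:186705990-186706239 (minus) and chr19:34255374-34255623 (minus).
Ogn: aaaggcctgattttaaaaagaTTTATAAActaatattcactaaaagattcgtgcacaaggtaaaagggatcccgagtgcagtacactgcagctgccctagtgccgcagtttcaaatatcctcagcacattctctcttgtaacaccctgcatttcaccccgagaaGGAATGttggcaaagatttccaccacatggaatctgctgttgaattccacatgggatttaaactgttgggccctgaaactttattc
Mmp14: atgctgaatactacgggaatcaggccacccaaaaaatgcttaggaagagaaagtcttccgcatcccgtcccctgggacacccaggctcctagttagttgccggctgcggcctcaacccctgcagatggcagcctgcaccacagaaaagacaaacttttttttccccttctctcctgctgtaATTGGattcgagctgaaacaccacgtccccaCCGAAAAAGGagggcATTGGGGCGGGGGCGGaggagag
Tgfb2: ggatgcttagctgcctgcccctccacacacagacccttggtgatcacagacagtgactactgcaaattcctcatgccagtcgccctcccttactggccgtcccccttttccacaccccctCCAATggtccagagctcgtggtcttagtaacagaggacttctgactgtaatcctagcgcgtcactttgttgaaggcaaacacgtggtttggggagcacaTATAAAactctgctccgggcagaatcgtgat
Acta2: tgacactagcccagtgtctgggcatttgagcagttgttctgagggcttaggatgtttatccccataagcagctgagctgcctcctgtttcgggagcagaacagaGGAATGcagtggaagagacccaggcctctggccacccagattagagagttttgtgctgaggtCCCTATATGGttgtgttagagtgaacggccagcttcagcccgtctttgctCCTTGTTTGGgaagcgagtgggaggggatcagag
The motifs searched on both strands were the TATA box TATAAA, the CCAAT box CCAAT, the GC box GGGCGG, the AP-1 site TGANTCA, the MCAT element CATTCC and the CArG box. The strict CArG box is CC, then 6 bases that are each A or T, then GG. A form with 1 of those 6 bases being C or G was added after the sequences were seen. In Ogn the capitals are 2 overlapping TATA boxes, from 229 to 222 bases before the start, and an MCAT element on the opposite strand. Mmp14 has 2 CCAAT boxes on the opposite strand and 2 GC boxes near the start, where 1 CCAAT box and 1 GC box share a base, and a CArG form 1 base off from 38 to 29 bases before the start. Tgfb2 has a CCAAT box and a TATA box that ends 26 bases before the start, and Acta2 has an MCAT element on the opposite strand. Acta2 also has 2 CArG forms 1 base off, from 84 to 75 and from 34 to 25 bases before the start.

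Over the 8 called genes with a promoter, 4 held a CCAAT box, 3 a TATA box, 3 a GC box, 1 an MCAT element, and 0 an AP-1 site or a strict CArG box. Over the 13 others the numbers were 2, 3, 8, 2, 1 and 0. Of all 32841 promoter entries of the table, 33.9% held a CCAAT box, 12.4% a TATA box, 32.7% a GC box, 12.6% an MCAT element, 6.75% an AP-1 site and 1.47% a strict CArG box. The CArG form 1 base off was in 2 of the 8, in 3 of the 13 and in 7.24% of all entries. None of these motifs was present in all 8 called genes.

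Other genes of the matrix pathway were taken from 6 lists of 111 genes, also chosen with earlier results of these data known. Of the 108 tested, 20 were called higher and 3 lower, against 6.61% and 8.27% of all genes tested. Elastic fibre assembly had 8 of 18 higher and 0 lower and a median of 0.42. Emilin2 went from 7.38 ± 1.43 to 13.5 ± 0.700 CPM, a log2 difference of 0.87 (SE 0.15, adjusted p 0.0132). Ltbp4, a latent TGF-beta binding protein of elastic fibres, went from 98.7 ± 6.10 to 140 ± 18.8 CPM (0.51, adjusted p 0.0192). Mfap5, a microfibril-associated glycoprotein, went from 27.97 ± 10.1 to 62.9 ± 10.5 CPM (1.17, adjusted p 0.0200). The other 5 called, Mfap2, Ltbp1, Ltbp3, Fbln2 and Adamtsl4, are named after their values were seen and ranged from 0.37 to 0.84. In 7 of the 18 genes all knockouts lay above all controls, against 9.29% of all genes tested.

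Among other fibril and small leucine-rich proteins, 4 of 20 rose and 1 fell, against 6.61% and 8.27% of all genes. The list's median was 0.53. Aspn (asporin), a relative of Ogn, went from 37.6 ± 10.9 to 81.7 ± 16.9 CPM, a log2 difference of 1.12 (adjusted p 0.0192). The thrombospondins Thbs4 and Thbs3 rose by 0.84 and 0.80 in log2 (adjusted p 0.0110 and 0.0244). Thbs4 kept its call in all 8 fits without a library. Col11a1 and Col11a2, chains of one minor fibrillar collagen, went in opposite directions, at 0.57 and −1.05 (adjusted p 0.0283 and 0.0287).

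Of the collagen synthesis and processing list, 2 of 24 rose and 0 fell, against 6.61% and 8.27% of all genes. The rise is thus near the background. There were 14 log2 fold changes above 0 and 10 below. DESeq2 called 6 higher and 2 lower (10.8% and 13.6% of all genes), and limma-voom 8 and 5 (22% and 22.9% of all genes). Bmp1, which removes the C-propeptide of procollagen, went from 139 ± 12.2 to 186 ± 15.2 CPM, a log2 difference of 0.43 (adjusted p 0.0189). Adamts2, which removes the N-propeptide, went from 30.1 ± 6.86 to 54.2 ± 11.1 CPM (0.85, adjusted p 0.0230). The other 22 genes were not called by edgeR, among them the related processing enzymes Adamts3, Adamts14 and Tll1, at 0.01, 0.12 and −0.07.

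Among other proteases and inhibitors, 4 of 15 tested rose and 0 fell, against 6.61% and 8.27% of all genes. Adamts5, which cleaves versican and other proteoglycans, went from 33.25 ± 7.34 to 64.6 ± 6.97 CPM, a log2 difference of 0.96 (SE 0.15, adjusted p 0.0121). Ctsk (cathepsin K, a collagenase) and Timp1, an inhibitor, rose by 0.78 and 0.44 in log2 (adjusted p 0.0343 and 0.0451), the latter at 6.91 to 11.6 CPM. Plau, for the plasminogen activator urokinase, is named after its values were seen: it had 72.7 to 413 CPM in controls and 8.63 to 134 CPM in knockouts, at −2.43 in log2 (SE 0.85, adjusted p 0.0816). DESeq2 called 1 gene of this list lower, against 13.6% of all genes. Mmp3, Mmp7 and Mmp13 were below the filter, with at most 0.753 CPM in any library. Of 12 matrix receptors, 2 rose and 2 fell, against 6.61% and 8.27% of all genes. Mrc2, a receptor that takes up collagen, rose by 0.43 in log2 (adjusted p 0.0249) and Ddr2, a collagen receptor kinase, by 0.41 (adjusted p 0.0470). Itga1, a collagen-binding integrin, fell by 1.04 in log2 (adjusted p 0.0312), and Sdc4, a syndecan, fell by 0.35 (adjusted p 0.0319). With the adrenal covariate, edgeR called 0 of the 108 genes lower, Itga1, Sdc4 and Col11a2 included, against 3.31% of all genes. In that fit 11 of the 108 were lower at an unadjusted p under 0.05.

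Beside the ligands, the list of TGF-beta receptors, effectors and responses had 0 of 19 genes called by edgeR and a median of 0.01. At an unadjusted p under 0.05 there were 3 higher and 4 lower, while DESeq2 called 0 higher and 3 lower and limma-voom 3 higher and 5 lower. The shares of all genes were 16.5% and 18.6% at the unadjusted p, 10.8% and 13.6% in DESeq2, and 22% and 22.9% in limma-voom, so the counts of this list lie near the background.

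**Figure D5:**
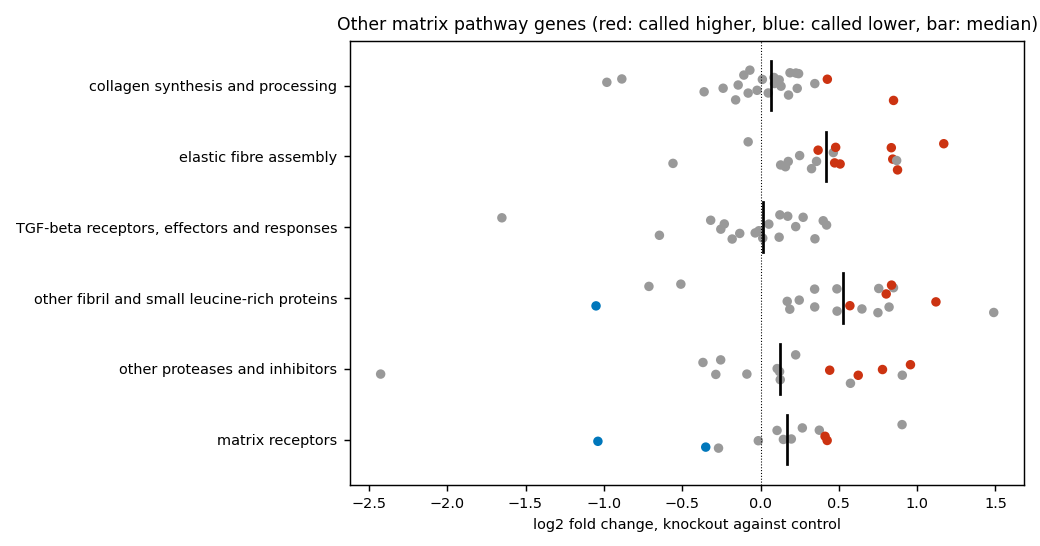
Log2 fold changes (x axis) of the 108 tested genes of 6 further matrix lists (rows; vertical jitter is arbitrary); red is called higher, blue called lower, grey not called, and the bar is the list's median. The elastic fibre list has 8 red points, and the TGF-beta receptor and response list has none.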

How the data were processed

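Per the file headers, the deposited values are unnormalized whole-number counts of reads for each gene in 8 libraries, with the exon coordinates and length of each gene (unit other than counts: bases). The submitters' processing notes name Trimmomatic 0.36, STAR 2.5.2b, featureCounts of Subread 1.5.2, DESeq2 and build GRCm38. The setting for strand and for reads matching several genes is not given in the sources used here. The table of the whole series and the tables per library differed in 0 cells. Libraries were grouped by genotype and held 19524945 to 28544511 counts, so 1 count stood for 0.0350 to 0.0512 CPM before TMM scaling. Symbols came from GENCODE M21, and 28 of the 36 genes had the same start and end there.

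Counts were scaled by TMM, filtered with filterByExpr (18485 genes) and tested in edgeR 4.0.16 (R 4.3.3) by its quasi-likelihood F test, 4 knockout against 4 control libraries, without a covariate. A call is a Benjamini-Hochberg adjusted p under 0.05 over all genes tested. CPM uses TMM library sizes. No 2 libraries were alike within sampling noise (chi-square per degree of freedom of at least 11.9). The genes and lists were chosen with earlier results of these data known. Values in every library are given for called genes and, where a role group had no call, for the gene with the smallest adjusted p. Col15a1, Eln, Timp3 and Acta2 are described in more detail by choice after their values were seen. From each further list the 3 called genes with the smallest adjusted p are named. Alternatives were DESeq2 1.42.0 or its size factors, limma-voom (limma 3.58.1), total counts, other filters, the replicate number, Y-linked or adrenal transcripts as terms, and libraries left out.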

Additional observations from a re-analysis of the deposited data

Results flagged for a closer look

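In 8 of 72 groups of 4 libraries, 1 library lay far from the other 3 by a gap test that chance passes in about 1 group in 20. Control replicate 2 was that library in 6 of the 8. It had 622 CPM of Col1a1 (others 365 to 402), 1058 CPM of Col1a2 (729 to 781) and 179 CPM of Col5a2 (112 to 120). It also had 110 CPM of Col6a3 (64.1 to 70.2), 1306 CPM of Sparc (919 to 975) and 232 CPM of Mmp14 (152 to 165). Knockout replicate 3 had 158 CPM of Col15a1, against 27.8 to 38.4 CPM in the other knockouts. Control replicate 1 had 154 CPM of Eln, against 177 to 181 CPM in the other controls.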

How the results depend on the processing

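The count of matrix genes called was 11 of 36, and 8 to 13 with DESeq2 size factors, total counts, either filter, or the Y-linked or adrenal term. It was 18 with DESeq2 and 26 with limma-voom and sample weights. It was also 26 without control replicate 2 and knockout replicate 3, the library of each group most like the other group. It was 0 without knockout replicates 1 and 4, and 1 to 24 when each library was left out in turn. All genes called numbered 2751, and 4506, 8302, 7903 and 1 in the same 4 fits, 1196 with the adrenal term and 153 to 7084 with a library left out. The further matrix lists had 23 calls, and 46, 62, 56 and 0 in the same 4 fits, and 1 to 48 with a library left out. The cause was not tested. With total counts as the scale, all genes split into 1571 higher and 1172 lower, against 1222 and 1529 with TMM.

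The replicate numbers were not taken as pairs: same-numbered libraries had correlations of −0.12, 0.36, 0.28 and −0.10, and not every library correlated best with its own number. With the replicate block, 21 of the 36 genes were called, 20 higher and 1 lower. Over all 18485 genes that fit called 1481 higher and 1748 lower. Without knockout replicates 1 and 4, Acta2 changed sign to 0.033. Without control replicate 2 and knockout replicate 3, Col6a2 was −0.023, Fn1 −0.13 and Loxl2 −0.00075, and Fn1 was −0.019 with limma-voom. With a library left out, Col6a2 ranged from −0.036 to 0.17, Fn1 from −0.076 to 0.22 and Loxl2 from −0.052 to 0.11. A limit of 5 CPM changed no role group's median, since all 36 genes passed it. Depth limits the lowest gene most: Lum had 232 counts in its lowest library.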
